A study of Rattus norvegicus with 3 samples.

Results

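Snapin, Vamp1, Vamp2, Snap25, Stx1a, Syt1, Rims3, Cplx1 and Cplx2 are genes of the machinery that releases neurotransmitter from synaptic vesicles, and 8 of these 9 genes have a row among the 23098 features of the nucleus accumbens libraries described here. Cplx1 was matched to no row by its symbol and was not analysed here. They were chosen by measured values of these same libraries: Snapin and Vamp2 had been seen to be lower, and Rims3 higher, in the high anxiety library than in the low anxiety library. Their ratios are therefore given as descriptions, with no test.

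A synaptic vesicle fuses with the presynaptic membrane when a vesicle SNARE protein, synaptobrevin, zips together with SNARE proteins of the membrane, syntaxin and SNAP-25. Synaptotagmin senses calcium and triggers fusion, complexin clamps and then assists the assembled SNARE complex, and RIM proteins organise the active zone where vesicles dock. In the nucleus accumbens, medium spiny neurons that carry the D1 or the D2 dopamine receptor release GABA by this machinery and are the main output cells of the region.

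Single-nucleus RNA was measured in punches of the nucleus accumbens from outbred Wistar rats at 16 weeks of age, in 3 libraries. The first group was high anxiety rats given urolithin A, which gut bacteria make from plant polyphenols, for 2 months. The second was high anxiety rats and the third low anxiety rats, both without treatment, and rats had been sorted by their behaviour in an elevated plus maze and an open field with an unfamiliar object. Each library pooled punches from 5 hemispheres, so there was 1 library per group, animals could not be told apart, and no p-value was computed. All intervals below are 95% intervals that cover counting error only.

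The urolithin A library held 3421 nuclei after filters, with a median of 4726 unique molecular identifiers (UMIs, counted RNA molecules) per nucleus, the high anxiety library 3694 with 4549.5, and the low anxiety library 3379 with 3952. Between 4 and 6 barcodes were shared by any pair of libraries. Classes of nuclei were rebuilt by clustering and named by marker genes, and 0 of the 8 genes were among the variable genes used for clustering. D1 medium spiny neurons (761 nuclei in urolithin A, 667 in high anxiety and 777 in low anxiety) carried UMIs of 8 of 8 D1 markers in every library, which summed to 1086, 1030 and 1083 CPM, the counts of a gene scaled to the class total. In D2 medium spiny neurons (533, 506 and 555 nuclei in the same order) the D1 markers summed to 33.3, 21.2 and 54.1 CPM, while the 9 D2 markers summed to 4288, 3902 and 4049 CPM.

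In D1 neurons, Snapin and Vamp2 were at least 1.5-fold lower in high anxiety than in low anxiety and Rims3 was at least 1.5-fold higher, while Vamp1, Snap25, Stx1a, Syt1 and Cplx2 stayed within that limit. The same 3 genes passed it in D2 neurons, in the same directions. Measured genes were those that reached 100 UMIs in either library of a pair. Of 8 measured genes in D1 neurons, 1 was higher and 2 were lower, beside 2.15% higher and 2.89% lower among all 7497 measured genes. Of 7 in D2 neurons, 1 was higher and 2 were lower, beside 1.85% and 2.43% of 6264 genes. Because the genes were chosen knowing this comparison, nothing is read from those shares. The median log2 ratio of the 8 genes was -0.02 in D1 neurons, against -0.01 over all measured genes there.

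Snapin encodes a small protein that binds SNAP-25 and is also a subunit of BLOC-1 and BORC, complexes that act on the sorting and positioning of endosomes and lysosomes. In D1 neurons its level was 44.8 CPM (237 UMIs) in urolithin A, 24.7 CPM (131 UMIs) in high anxiety and 63.9 CPM (307 UMIs) in low anxiety. The high anxiety library was the lowest and the low anxiety library the highest, with counting intervals that did not overlap. High anxiety over low anxiety gave a log2 ratio of -1.37 (-1.68 to -1.07), which was the 2nd lowest of the 7497 measured genes. The 2 clusters that made up the D1 class each showed it, at -1.59 in the cluster led by Ebf1 and Reln and -1.17 in the cluster led by Nmb and Drd3.

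In D2 neurons Snapin had 31.9 CPM in urolithin A, 30.4 CPM in high anxiety and 54.1 CPM in low anxiety. Here the urolithin A and high anxiety levels overlapped and both lay under low anxiety, with -0.83 (-1.18 to -0.49) for high anxiety over low anxiety. In eccentric medium spiny neurons, a striatal type set apart from the classical D1 and D2 types, the levels were 45.0, 28.6 and 58.8 CPM in the order urolithin A, high anxiety and low anxiety. GABAergic interneurons had 51.6 CPM in urolithin A, 35.4 CPM in high anxiety and 73.6 CPM in low anxiety. In both classes high anxiety was again the lowest library. The interneuron levels of high anxiety and low anxiety rest on 58 and 81 UMIs, under the minimum of 100. Of the eccentric nuclei, 16 in urolithin A, 10 in high anxiety and 103 in low anxiety came from 1 mostly low anxiety cluster. High anxiety over low anxiety was -1.04 (-1.53 to -0.57) in the whole eccentric class. In its cluster led by Mdfic and Casz1 alone it was -1.17 (-1.76 to -0.59), on 42 and 67 UMIs. The part of the class makeup in the eccentric levels was not tested.

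Glial Snapin levels were of the same order as those of neurons. Oligodendrocytes had 62.2 CPM in urolithin A, 48.9 CPM in high anxiety and 77.0 CPM in low anxiety, and high anxiety over low anxiety was -0.65 (-1.04 to -0.27). Across the 8 classes with at least 100 nuclei in every library this ratio was below 0 in 8, from -1.37 in D1 neurons to -0.20 in astrocytes, and the interval lay below 0 in 5. Astrocytes, oligodendrocyte precursors and microglia, with 11 to 35 Snapin UMIs per library, had intervals that included 0.

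Vamp2 encodes synaptobrevin-2, the vesicle SNARE of most forebrain synapses, and Vamp1 encodes its relative synaptobrevin-1. Vamp2 had 49.0 CPM (259 UMIs) in D1 neurons of urolithin A, 32.3 CPM (171 UMIs) in high anxiety and 60.5 CPM (291 UMIs) in low anxiety. High anxiety over low anxiety was -0.91 (-1.19 to -0.63), the 39th lowest of 7497 genes. In D2 neurons the levels were 45.4 CPM in urolithin A, 33.3 CPM in high anxiety and 59.3 CPM in low anxiety, a ratio of -0.83 (-1.16 to -0.51) for high anxiety over low anxiety. As for Snapin in D1 neurons, high anxiety was lowest and urolithin A lay between the other libraries.

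The lower Vamp2 level was also seen outside the D1 and D2 classes. GABAergic interneurons had 62.0 CPM in urolithin A, 58.0 CPM in high anxiety and 92.6 CPM in low anxiety, and eccentric neurons 55.1, 44.3 and 74.1 CPM in that order. With each eccentric nucleus thinned to 2500 UMIs, which left out 63 low anxiety nuclei, Vamp2 had 70.0, 51.6 and 65.3 CPM. Low anxiety was then no longer the highest, while high anxiety was still the lowest. Without thinning, the eccentric cluster led by Mdfic and Casz1 gave -0.89 (-1.36 to -0.43) for high anxiety over low anxiety, on 70 and 92 UMIs. Oligodendrocytes differed little, with 64.1 CPM in urolithin A, 68.5 CPM in high anxiety and 77.0 CPM in low anxiety and a high anxiety over low anxiety ratio of -0.17 (-0.52 to 0.19). Across the 8 classes the ratio was below 0 in 7 and its interval below 0 in 4, all of them neuronal. Astrocytes, oligodendrocyte precursors and microglia had only 15 to 26 Vamp2 UMIs in each of these libraries, so their intervals were wide. Microglia were at -0.86 (-1.95 to 0.21), so a difference limited to neurons is not shown. Oligodendrocyte precursors, at 0.25 (-0.69 to 1.22), were the class above 0.

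Vamp1 had 20.2 CPM in D1 neurons of urolithin A, 19.6 CPM in high anxiety and 22.7 CPM in low anxiety. Its high anxiety over low anxiety ratio was -0.21 (-0.61 to 0.19), so a difference was not detectable at this depth, and the interval does not reach the Vamp2 ratio of -0.91. Committed oligodendrocyte precursors, the stage at which precursors turn into myelinating cells, had the highest Vamp1 level of any class: 118.7 CPM (13 UMIs) in urolithin A, 139.3 CPM (25 UMIs) in high anxiety and 195.7 CPM (11 UMIs) in low anxiety. These are 16 to 36 nuclei per library, and the level was high in all 3 libraries. Mature oligodendrocytes had 7.48 CPM in urolithin A, 5.48 CPM in high anxiety and 7.92 CPM in low anxiety.

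Rims3 encodes RIM3, a short RIM protein that lacks most domains of the longer RIMs. In D1 neurons it had 134.9 CPM (713 UMIs) in urolithin A, 131.5 CPM (697 UMIs) in high anxiety and 63.3 CPM (304 UMIs) in low anxiety. The urolithin A and high anxiety intervals overlapped, and low anxiety stood apart below both. High anxiety over low anxiety was 1.06 (0.86 to 1.26), the 36th highest of 7497 genes. D2 neurons had 141.3 CPM in urolithin A, 139.2 CPM in high anxiety and 62.5 CPM in low anxiety, and the ratio there was 1.16 (0.92 to 1.39), the 16th highest of 6264.

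Low anxiety was the lowest library in glia too. Rims3 was highest in microglia, with 416.9 CPM (136 UMIs) in urolithin A, 446.5 CPM (223 UMIs) in high anxiety and 221.2 CPM (73 UMIs) in low anxiety. Oligodendrocytes had 94.5 CPM of Rims3 in urolithin A, 96.6 CPM in high anxiety and 50.4 CPM in low anxiety. High anxiety over low anxiety was above 0 with its interval in 8 of 8 classes, from 0.60 in GABAergic interneurons to 1.16 in D2 neurons. Astrocytes, with 26 Rims3 UMIs in high anxiety and 16 in low anxiety, were under the minimum of 100. So were oligodendrocyte precursors, with 51 and 21. Since each group was 1 library, group and library cannot be told apart for any difference given here. This holds for differences that run through all classes, such as those of Rims3 and Snapin, and for those seen in some classes only.

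**Figure D1:**
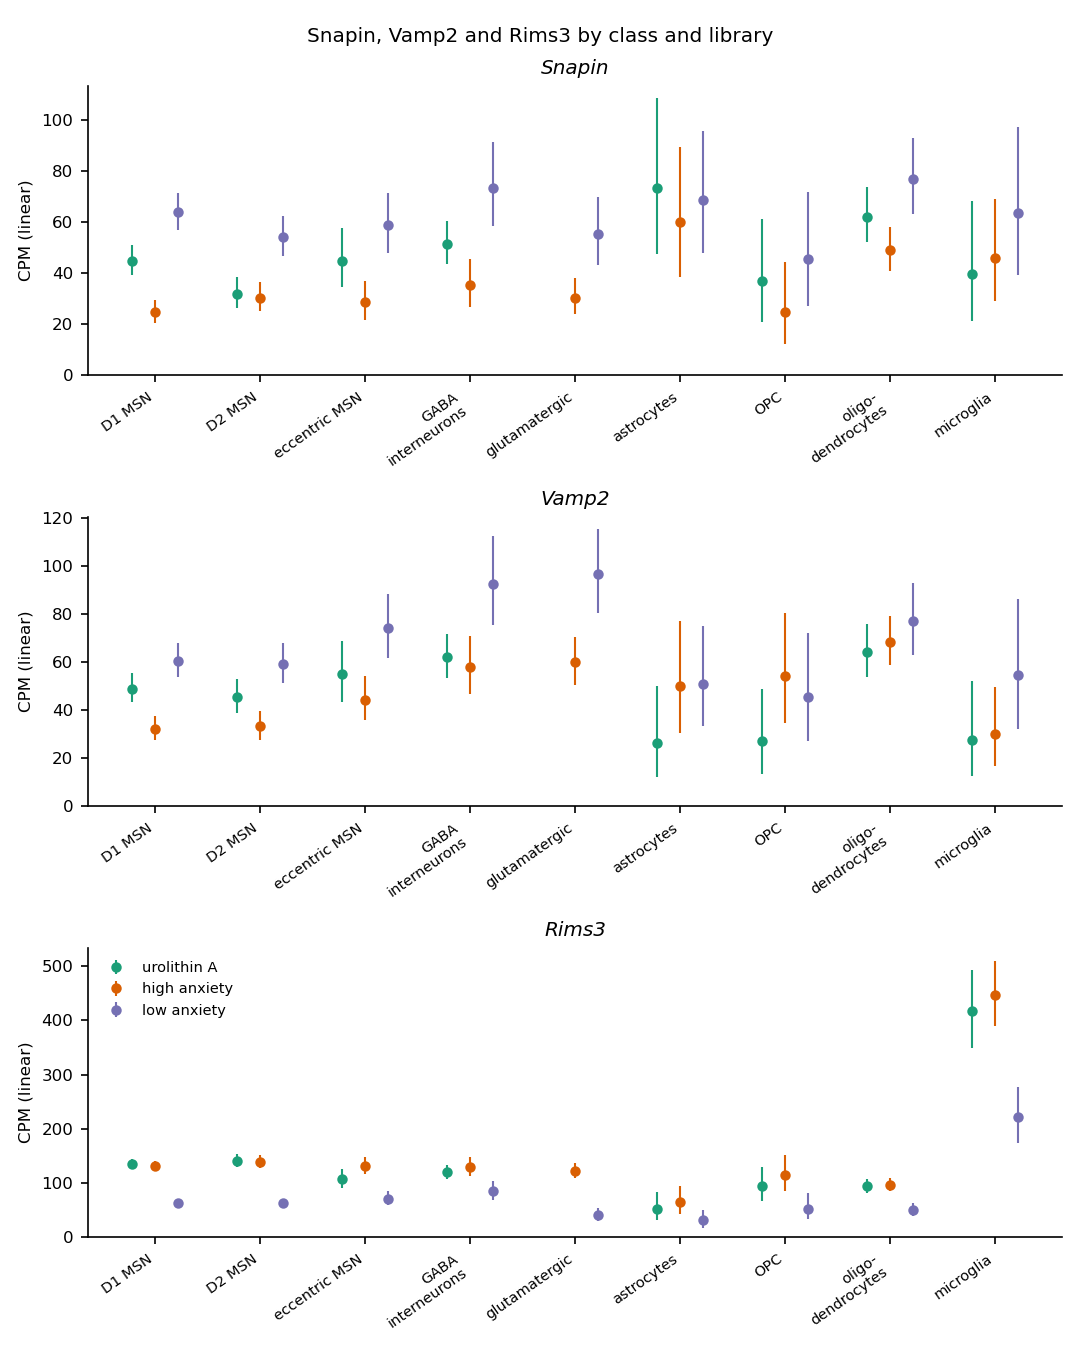
Levels of Snapin, Vamp2 and Rims3 in CPM (linear axes) by class, with 1 point per library (urolithin A, high anxiety, low anxiety from left to right) and exact Poisson 95% intervals. Points are drawn for libraries with at least 50 nuclei of the class, so glutamatergic neurons lack a urolithin A point. Snapin was lowest in high anxiety in D1 neurons (24.7 CPM), and Rims3 was lowest in low anxiety in every class drawn.

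Promoter sequences show how the starts of the oppositely moving Vamp2 and Rims3 compare, with Vamp1 as the relative of Vamp2. Each is the 300-base entry of a RefSeq promoter table, 5′ to 3′ on the gene's strand, on build GRCr8, which is not the build of the count files. For Vamp2 and Rims3 the entry is not placed at the outermost start of the gene in the RefSeq annotation. Vamp2 lies at chr10:54292539-54292838 (+ strand), Rims3 at chr5:139714070-139714369 (+ strand) and Vamp1 at chr4:159698644-159698943 (+ strand). Capitals mark the GC box GGGCGG and the cyclic AMP response element TGACGTCA, each searched on both strands, so that CCGCCC is a GC box on the opposite strand. No marked match overlaps another.
Vamp2: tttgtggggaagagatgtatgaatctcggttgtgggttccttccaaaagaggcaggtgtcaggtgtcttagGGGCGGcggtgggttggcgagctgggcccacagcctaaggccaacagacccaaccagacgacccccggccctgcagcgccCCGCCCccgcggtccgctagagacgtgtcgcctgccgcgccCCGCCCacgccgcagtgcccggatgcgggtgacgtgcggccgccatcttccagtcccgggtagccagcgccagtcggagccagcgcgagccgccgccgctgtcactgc
Rims3: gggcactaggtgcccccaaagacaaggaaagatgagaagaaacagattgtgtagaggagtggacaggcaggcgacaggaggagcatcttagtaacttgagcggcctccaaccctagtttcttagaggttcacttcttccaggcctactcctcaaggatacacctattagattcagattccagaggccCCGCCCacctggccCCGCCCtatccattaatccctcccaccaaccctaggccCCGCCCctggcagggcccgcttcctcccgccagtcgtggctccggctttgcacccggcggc
Vamp1: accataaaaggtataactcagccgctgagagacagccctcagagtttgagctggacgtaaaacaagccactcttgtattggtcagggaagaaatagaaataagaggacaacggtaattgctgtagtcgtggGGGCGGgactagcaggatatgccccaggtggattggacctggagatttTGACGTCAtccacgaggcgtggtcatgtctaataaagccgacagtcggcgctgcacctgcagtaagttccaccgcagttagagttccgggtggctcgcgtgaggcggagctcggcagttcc
Vamp2 and Rims3 each held 3 GC boxes, and Vamp1 held 1 GC box and 1 cyclic AMP response element. Of 33469 promoters of this length, 33.1% held a GC box, 1.83% the cyclic AMP response element and 14.2% the TATA box TATAAA, which was in none of the 3. Both oppositely moving genes thus hold GC boxes. The share of all promoters that hold 3 was not counted, and a match of letters is no sign that a factor binds there.

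Snap25 and Stx1a encode the membrane SNARE proteins SNAP-25 and syntaxin-1A. Snap25 had 677.6 CPM in D1 neurons of urolithin A, 635.1 CPM in high anxiety and 624.0 CPM in low anxiety, and high anxiety over low anxiety was 0.03 (-0.05 to 0.10). Its level differed by class far more than by library: glutamatergic neurons had 993.7, 1052 and 1080 CPM in the order urolithin A, high anxiety and low anxiety, and microglia 73.6, 72.1 and 75.7 CPM. In the RefSeq annotation 2 genes overlap Snap25, 6 overlap Syt1 and 2 overlap Cplx2. The handling of reads that fall in overlapping genes was not stated in any source at hand.

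Stx1a in D1 neurons had 32.0 CPM in urolithin A, 30.01 CPM in high anxiety and 25.4 CPM in low anxiety, a high anxiety over low anxiety ratio of 0.24 (-0.11 to 0.59). In D2 neurons it had 23.1, 27.0 and 20.4 CPM in the same order of libraries. Glutamatergic neurons stood apart, with 215.1 CPM in urolithin A, 216.0 CPM in high anxiety and 217.5 CPM in low anxiety. Within that class the intervals of the 3 libraries overlapped.

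The number of glutamatergic nuclei differed between the libraries: 21 in urolithin A, 198 in high anxiety and 99 in low anxiety. They held 10.1% of the Stx1a UMIs of the urolithin A library, 51.8% of those of the high anxiety library and 43.1% of those of the low anxiety library. Over all nuclei Stx1a had 32.6 CPM in urolithin A, 50.4 CPM in high anxiety and 41.3 CPM in low anxiety, so urolithin A over high anxiety was -0.63 (-0.78 to -0.48). Without the glutamatergic nuclei, a choice made after seeing the data, it was 0.11 (-0.07 to 0.29), from 29.8 CPM in urolithin A and 27.6 CPM in high anxiety.

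**Figure D2:**
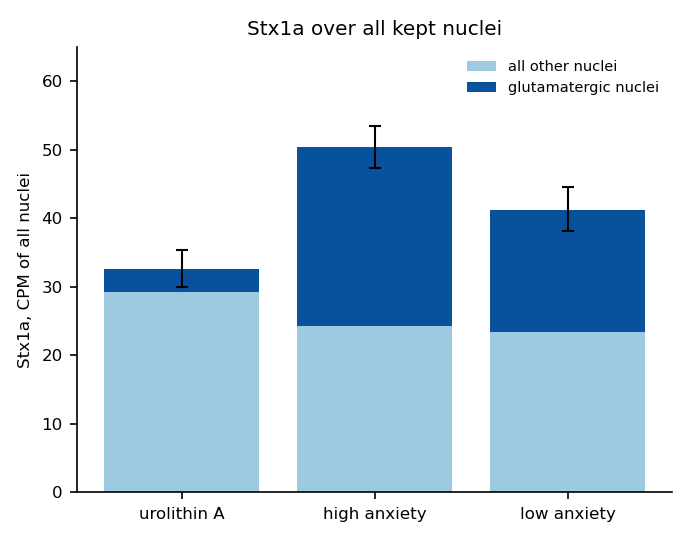
Stx1a level over all kept nuclei of each library (CPM, bars from 0), split into the part from glutamatergic nuclei and the part from all other nuclei, with exact Poisson 95% intervals of the total. The totals were 32.6 CPM in urolithin A, 50.4 CPM in high anxiety and 41.3 CPM in low anxiety, and urolithin A was not the lowest in the part from all other nuclei.

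Syt1 encodes synaptotagmin-1, the calcium sensor of fast release. D1 neurons had 2841 CPM in urolithin A, 2739 CPM in high anxiety and 2860 CPM in low anxiety, and D2 neurons 2874, 2886 and 3086 CPM in that order. The largest counts of the 8 genes gave narrow intervals around small differences, with high anxiety over low anxiety at -0.06 (-0.10 to -0.03) in D1 neurons. In oligodendrocytes Syt1 had 27.6 CPM in urolithin A, 29.3 CPM in high anxiety and 81.3 CPM in low anxiety, and in astrocytes 41.2, 107.5 and 261.5 CPM.

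By CPM, the low anxiety library thus carried more Syt1 in these 2 glial classes. Syt1 was found in 9.68% of astrocytes in urolithin A, 22.3% in high anxiety and 16.9% in low anxiety. After thinning the shares were 9.86%, 17.1% and 20.0% in that order, with overlapping intervals. The thinned low anxiety library had 36 Syt1 UMIs in 12 of 60 astrocytes, and high anxiety 16 in 14 of 82. A higher share of astrocytes with Syt1 in low anxiety is thus not shown. Microglia, with 16 UMIs in urolithin A, 17 in high anxiety and 39 in low anxiety, had a high anxiety over low anxiety ratio of -1.80 (-2.71 to -0.94). Oligodendrocyte precursors were at -0.25 (-0.56 to 0.06). In oligodendrocytes the 8 D1 markers moved with Syt1, summing to 22.9 CPM in urolithin A, 26.2 CPM in high anxiety and 39.6 CPM in low anxiety. UMIs of Syt1 were found in 5.52% of oligodendrocytes in urolithin A, 6.42% in high anxiety and 12.8% in low anxiety, at median depths of 2157, 2257 and 1821 UMIs. Their part in the glial ratios of the other genes was not tested.

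Cplx2 encodes complexin-2. In D1 neurons it had 162.3 CPM in urolithin A, 191.9 CPM in high anxiety and 161.9 CPM in low anxiety, so high anxiety was the highest of the 3. High anxiety over low anxiety was 0.25 (0.11 to 0.38) and urolithin A over high anxiety -0.24 (-0.37 to -0.11), both within 1.5-fold. D2 neurons showed the same order with 155.7 CPM in urolithin A, 171.7 CPM in high anxiety and 145.1 CPM in low anxiety. Oligodendrocytes and microglia had low levels, at 6.06 to 12.9 CPM over the 3 libraries.

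**Figure D3:**
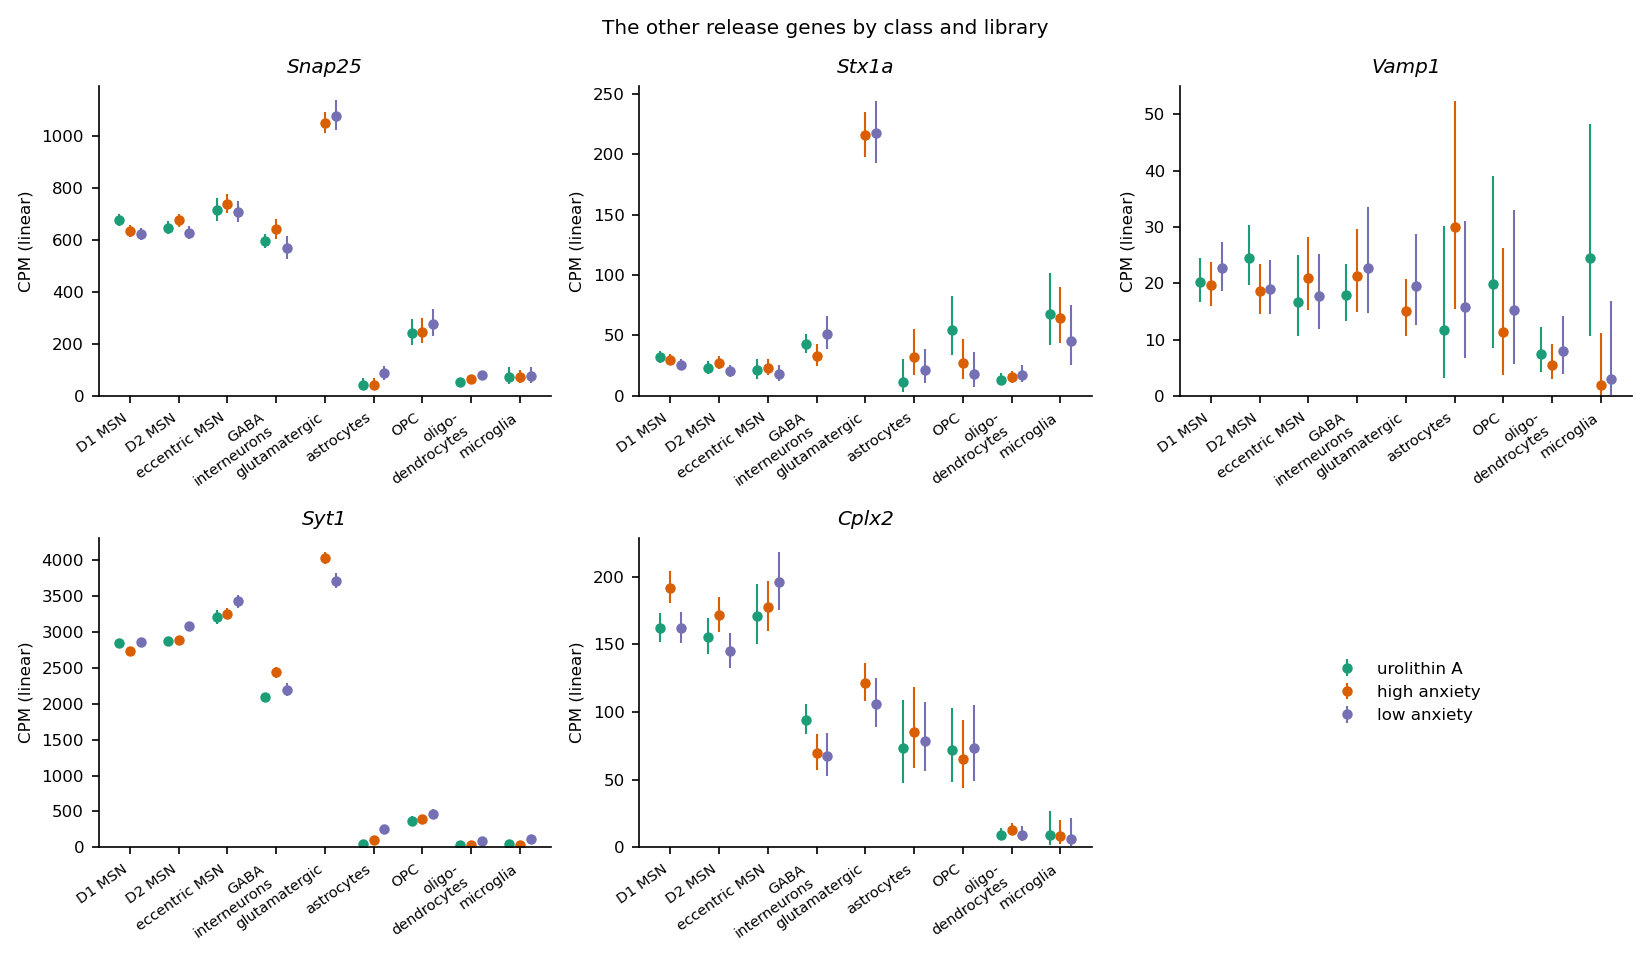
Levels of Snap25, Stx1a, Vamp1, Syt1 and Cplx2 in CPM (linear axes) by class and library, with exact Poisson 95% intervals, for libraries with at least 50 nuclei of the class. Stx1a stands out in glutamatergic neurons, at 216.0 CPM in high anxiety and 217.5 CPM in low anxiety, and Syt1 and Snap25 separate neurons from glia.

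The second pair of libraries compares urolithin A with untreated high anxiety. In D1 neurons Snapin was higher in urolithin A than in high anxiety, at 0.86 (0.55 to 1.18), and so was Vamp2, at 0.60 (0.32 to 0.89), just past the 1.5-fold limit. Rims3 was not, at 0.04 (-0.12 to 0.19). Of 8 measured genes 2 were higher and 0 lower, beside 1.23% higher and 0.792% lower among 7577 genes. This comparison shares the high anxiety library with the one above, so a low Snapin or Vamp2 count in that library enters both.

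The Vamp2 call was not firm, and neither call held among cleaner nuclei. When nuclei needed 1000 detected genes and no more than 1% mitochondrial UMIs, urolithin A over high anxiety was 0.56 for Snapin and 0.32 for Vamp2, both under the limit. Mitochondrial UMIs made up 1.13% of D1 neuron UMIs in urolithin A, 1.00% in high anxiety and 0.849% in low anxiety; their part in the result was not tested. The cluster led by Ebf1 and Reln gave 0.98 for Snapin and 0.75 for Vamp2, and the cluster led by Nmb and Drd3 gave 0.83 and 0.47.

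D2 neurons differed from this in their values. Snapin was at 0.07 (-0.32 to 0.45) for urolithin A over high anxiety and Vamp2 at 0.45 (0.10 to 0.80). None of 7 genes passed 1.5-fold, with 0 higher and 0 lower, beside 1.66% higher and 0.669% lower among 6277 genes. Whether the Snapin ratio differs between D1 and D2 neurons was not tested, since each ratio rests on 1 library per group.

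Set against low anxiety, urolithin A kept a high Rims3 level, at 1.09 (0.90 to 1.29) in D1 neurons and 1.18 (0.94 to 1.41) in D2 neurons. Snapin was at -0.51 (-0.76 to -0.26) in D1 neurons and -0.76 (-1.11 to -0.42) in D2 neurons, and Vamp2 at -0.31 (-0.55 to -0.06) and -0.38 (-0.69 to -0.08). In D1 neurons 1 of 8 genes was higher and 0 lower, beside 2.83% and 1.31% of 7562 genes. In D2 neurons 1 of 6 was higher and 1 lower, beside 2.50% and 1.21% of 6189 genes. Thus Snapin and Vamp2 levels in urolithin A lay between those of the other libraries in D1 neurons, and the Rims3 level overlapped that of high anxiety.

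**Figure D4:**
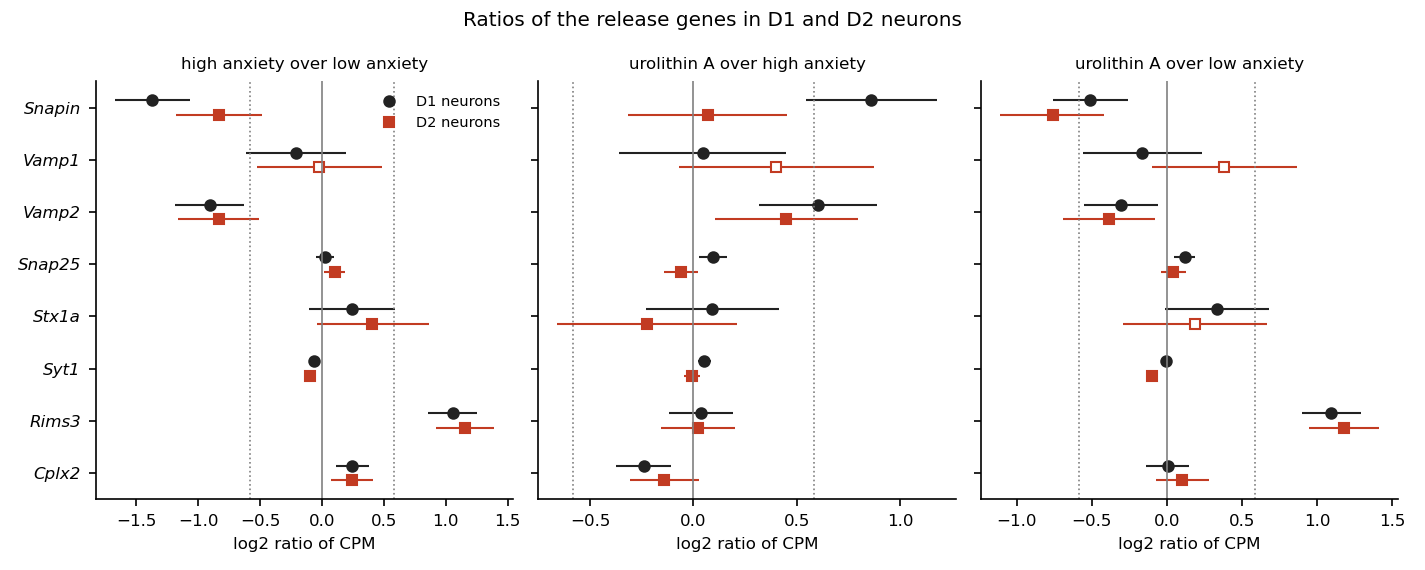
Log2 ratios of CPM for the 8 genes in D1 (black circles) and D2 (red squares) neurons with exact 95% counting intervals, for each pair of libraries. Dotted lines mark 1.5-fold, and open symbols are genes under 100 UMIs in both libraries. Snapin, Vamp2 and Rims3 lie outside the lines for high anxiety over low anxiety in both classes.

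Other genes of the release pathway were read from 8 role lists of 123 genes, 119 of them in the files, which were compiled with earlier results of these data known. Over all 7497 measured genes of D1 neurons, 2.15% were higher and 2.89% lower in high anxiety than in low anxiety. Beside those shares, a count of 0 or 1 past the limit is not read as a result about a list. The SNARE proteins had 13 of 13 measured in D1 neurons, with 0 higher and 1 lower in high anxiety than in low anxiety, namely Vamp2, and a median log2 ratio of 0.00. Snap29, a relative of Snap25, was at -0.09. Among SNARE binding and recycling proteins, 15 of 18 were measured and Snapin was the 1 lower gene. Nearest to it were Sncb, beta-synuclein, at -0.58 (-1.03 to -0.13), and Prrt2, which restrains SNARE assembly, at -0.56 (-0.77 to -0.35), both within the limit.

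Of 20 active zone proteins 20 were measured and Rims3 was the 1 higher gene, beside 2.15% higher among all 7497 measured genes. Its longer relatives did not share the value: Rims1 was at 0.08 and Rims2 at 0.21 (0.15 to 0.27). Synaptotagmins (11 of 14 measured), synaptic vesicle proteins (15 of 17), vesicle endocytosis proteins (18 of 19) and presynaptic calcium channels (10 of 10) had 0 higher and 0 lower, with medians from -0.02 to 0.02. Syp, synaptophysin, was the vesicle protein furthest below, with 153.6 CPM in urolithin A, 142.1 CPM in high anxiety and 206.2 CPM in low anxiety.

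Snapin's own complexes were sparsely measured, with 5 of 13 BLOC-1 and BORC subunits in D1 neurons. Snapin and Bloc1s4 were lower, beside 2.89% lower among all 7497 measured genes, and the median was -0.41, of which Snapin is itself a part. Bloc1s4 had 20.6 CPM (109 UMIs) in urolithin A, 16.2 CPM (86 UMIs) in high anxiety and 28.7 CPM (138 UMIs) in low anxiety, a high anxiety over low anxiety ratio of -0.82 (-1.23 to -0.42). Borcs5 was also below 0, at -0.41 (-0.83 to -0.0005), within the limit. Bloc1s2 went the other way at 0.34 (-0.08 to 0.77), and Dtnbp1, dysbindin, was at 0.02. Members of 1 complex thus had unlike ratios.

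In the other comparisons, the list genes past the limit apart from Snapin, Vamp2 and Rims3 are named next. The shares over all measured genes there ran from 0.669% to 2.83%, so these genes are not read as a result about the lists. In D1 neurons Sncb was higher in urolithin A than in high anxiety, at 0.59 (0.15 to 1.03), and Borcs7 higher in urolithin A than in low anxiety, at 0.73 (0.26 to 1.20). In D2 neurons the active zone gene Lin7b was lower in high anxiety than in low anxiety, at -0.61 (-0.84 to -0.38). Rims4, a close relative of Rims3, was higher in D2 neurons of urolithin A than of high anxiety, at 0.62 (0.19 to 1.06), and Syt9 was lower there, at -0.76 (-1.13 to -0.39). Against low anxiety, Rims4 in D2 neurons of urolithin A was at 0.65, Syt9 at -0.66 and the calcium channel subunit Cacnb3 at -0.83.

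**Figure D5:**
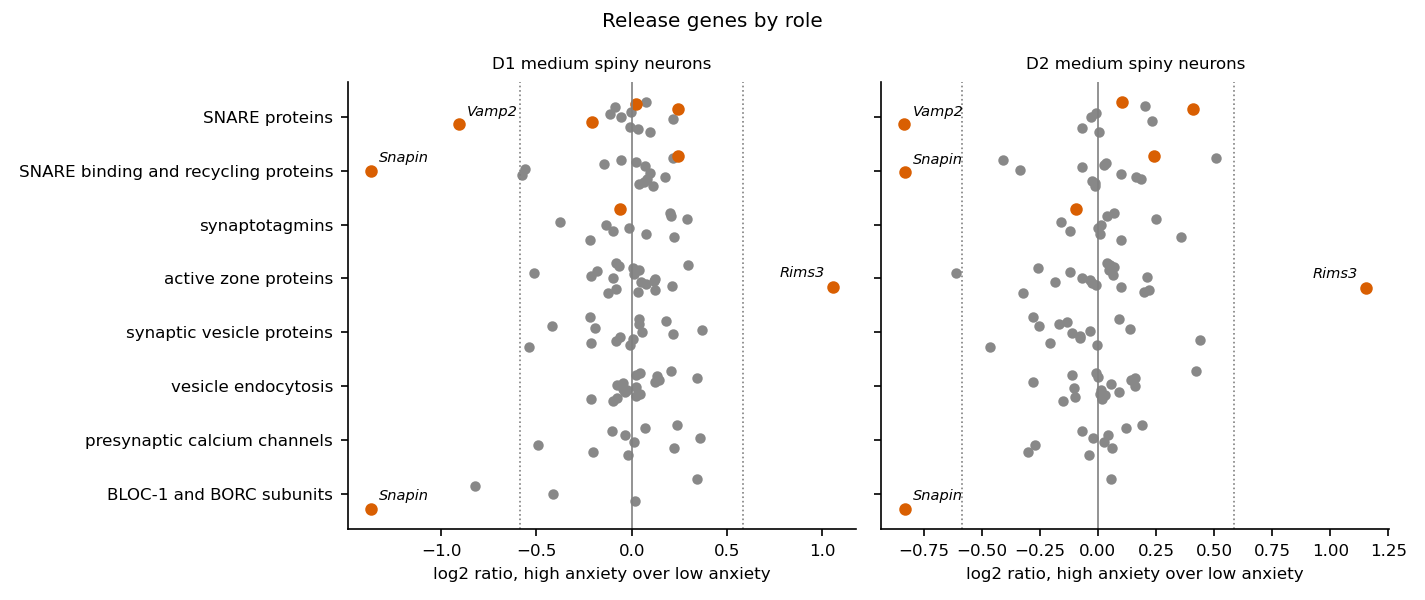
Log2 ratios of high anxiety over low anxiety for each measured gene of the 8 role lists in D1 and D2 neurons, 1 point per gene. Orange points are the 8 genes described here and dotted lines mark 1.5-fold. In D1 neurons most genes of every list lie between the lines, with Snapin, Vamp2 and Rims3 outside them.

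Since a deeper library finds a gene in more nuclei, shares of nuclei were also compared after thinning each nucleus to 2500 UMIs. Snapin was found in 12.03% of thinned D1 neurons in urolithin A, 6.14% in high anxiety and 13.9% in low anxiety. Before thinning the shares were 26.1%, 16.0% and 32.3% in that order, although high anxiety had the deepest D1 nuclei at a median of 7653 UMIs, against 5989 in low anxiety. Vamp2 was found in 10.6%, 7.37% and 13.5% of thinned D1 neurons, and in 26.8%, 21.7% and 29.5% before thinning. Rims3 was found in 30.2%, 28.9% and 15.1% after thinning and 58.3%, 60.9% and 29.5% before. Thinning left out 13 D1 nuclei of urolithin A, 16 of high anxiety and 16 of low anxiety.

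Thinned D2 neurons gave Snapin in 7.62% of urolithin A nuclei, 7.58% of high anxiety nuclei and 12.9% of low anxiety nuclei, against 18.2%, 20.6% and 28.5% before. Vamp2 was found in 12.2%, 8.58% and 14.4% of them in the same order, and Rims3 in 27.6%, 29.5% and 16.6%. After thinning, the order of the libraries by share was that of the CPM levels for Snapin and Vamp2. Before thinning it was not for Snapin in D2 neurons, where urolithin A had the lowest share. For Rims3 in D2 neurons the urolithin A and high anxiety shares had overlapping intervals, as did their levels.

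Likeness of level was measured by the Pearson correlation of log2(CPM + 10). Genes whose level followed each gene most closely were sought over 24 points, 8 classes in 3 libraries, among 7644 candidates. For Snapin these were Septin2, at 0.74, Wbp2, at 0.71, and RGD735065, at 0.70. Vamp2 was followed by Mrpl58, at 0.82, Cyb5r1, at 0.79, and Psmd3, at 0.79. Rims3 was followed by Fbxw4, at 0.93, Capza2, at 0.92, and Tektip1, at 0.89, while Fbxw4 had 249.95 CPM in D1 neurons of urolithin A, 252.3 CPM in high anxiety and 228.5 CPM in low anxiety. The libraries thus differed less in Fbxw4 than in Rims3. The points share libraries, depth and classes, so the values only describe likeness.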

How the data were processed

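Per the file headers, the deposited matrices came from Cell Ranger 7.1.0 and give whole-number counts of UMIs for each gene in each nucleus, and per the submitters' processing notes the genome was mRatBN7.2. Per the labels' protocols, nuclei were purified on a density gradient and processed with Chromium 3′ chemistry 3.1. Neither the treatment of intronic reads nor any removal of free RNA was stated in the sources at hand. Total counts were 19162530 UMIs in urolithin A, 22095390 in high anxiety and 16728049 in low anxiety.

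Kept nuclei had 500 or more detected genes and no more than 5% mitochondrial UMIs, and the highest Scrublet scores in each library (0.8% per 1000 nuclei) were removed as doublets: 99, 116 and 97 nuclei. Leiden clustering (scanpy 1.11.5, leidenalg 0.10.2, igraph 0.11.9, resolution 1, seed 7) of 30 components of 2000 variable genes with 15 neighbours gave 23 clusters. Clusters were named by 17 marker lists (156 of 162 genes matched), requiring 3 markers at least 2-fold higher. The D1 class is 2 clusters, of which the one led by Nmb and Drd3 had the weaker D1 markers.

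UMIs were summed per class and library and scaled to CPM. Ratios have exact conditional 95% intervals (Clopper-Pearson), levels exact Poisson and shares exact binomial intervals (scipy 1.17.1, numpy 2.4.6, pandas 2.3.3). Ratio intervals were tried on simulated counts with counting error alone, which is the error the intervals assume. That trial cannot speak to spread between animals, libraries or nuclei. The genes named are the 9 chosen, up to 4 per role list with the largest ratios, a few relatives named after their values were seen (Snap29, Rims1, Dtnbp1), and 3 genes of most alike pattern. The members, lists and rules were chosen with earlier results of these data known.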

Additional observations from a re-analysis of the deposited data

Results flagged for a closer look

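Syt1 and Cplx2 had ratios whose counting intervals lay on opposite sides of 0 in different neuron classes, and the difference between classes was not tested. For Syt1, high anxiety over low anxiety was -0.063 in D1 neurons, -0.10 in D2 neurons and -0.074 in eccentric medium spiny neurons, but 0.15 (0.08 to 0.23) in GABAergic interneurons. Urolithin A over high anxiety was 0.053 for Syt1 in D1 neurons and -0.22 (-0.27 to -0.16) in GABAergic interneurons. For Cplx2 it was -0.24 (-0.37 to -0.11) in D1 neurons and 0.44 (0.12 to 0.77) in GABAergic interneurons. The interneuron class held 371 nuclei in urolithin A, 185 in high anxiety and 163 in low anxiety. Of these, 236, 98 and 99 came from the cluster with Crh among its leading genes, in which Syt1 had 2172 CPM in urolithin A, 2464 CPM in high anxiety and 2149 CPM in low anxiety. The part of that makeup in the ratios was not tested.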

How the results depend on the processing

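Of 593 values recomputed under alternatives, 572 stayed within the counting interval of their ratio or within 1.5-fold of their count. A ratio could stay within its interval and still cross the 1.5-fold limit. The minimums of 20 and 200 UMIs changed which genes were measured, and could not change a ratio. Letting the members be chosen as variable genes placed 0 of them there and again gave 23 clusters. The 572 therefore include values that could not have moved. For high anxiety over low anxiety in D1 neurons, the ratio stayed within -1.59 to -1.31 for Snapin, -1.001 to -0.85 for Vamp2 and 0.97 to 1.14 for Rims3. The count of genes higher in urolithin A than in high anxiety in D1 neurons, 2, became 1 under median-of-ratios scaling, with equal weight per nucleus and after thinning, and 0 with stricter nuclei; the gene lost was Vamp2, and with stricter nuclei Snapin as well. The count lower in urolithin A than in low anxiety in D1 neurons, 0, became 1 with stricter nuclei and 1 in the largest cluster, where Snapin passed the limit. In D2 neurons a minimum of 200 UMIs left 1 of the 2 genes lower in high anxiety than in low anxiety and 0 of the 1 lower in urolithin A than in low anxiety, since Snapin was no longer measured. With stricter nuclei, the D2 gene lower in urolithin A than in low anxiety was Vamp2, at -0.59, and not Snapin, at -0.58. Rims3 in D2 neurons was 0.21 for urolithin A over high anxiety with stricter nuclei and 0.91 for urolithin A over low anxiety after thinning. Leaving out glutamatergic nuclei, an alternative added after seeing the data, reversed Stx1a over all nuclei for urolithin A over high anxiety, to 0.11. Causes were not tested beyond what each alternative changes by construction. No library could be left out and no paired analysis was possible because each group has 1 library; its spread between animals is unknown, and genes under 100 UMIs in both libraries of a pair were left out of the counts past 1.5-fold, so that their ratios are given with counting intervals alone.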
